A study of Mus musculus with 24 samples.

Results

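The genes described here are 8 CC chemokines (Ccl2, Ccl3, Ccl4, Ccl6, Ccl7, Ccl8, Ccl9 and Ccl12) and the chemokine receptor Ccr2. They were taken by name, as 9 of the 24062 gene rows in each of the count tables of this RNA-seq study of mouse quadriceps muscle. All 9 were present in both tables and were read in all 9 groups. The mice were C57BL/6. WT animals carried an intact Dmd gene, and delEx44 animals lacked exon 44 of Dmd, the gene for dystrophin, whose loss causes Duchenne muscular dystrophy. Corrected animals were delEx44 mice injected intraperitoneally on postnatal day 4 with AAV9 vectors, of which some carried a guide RNA and others SpCas9. They therefore shared the exon 44 deletion with the delEx44 group, and the labels give no injection for WT or delEx44. Each genotype was sampled sedentary at 4 weeks (3 libraries), sedentary at 18 months (3 libraries) and after downhill running (2 libraries). Runners started at 4 weeks and ran every other day for 1 month on a decline of 15 degrees at 12 m per min, so that they were 8 weeks old. Running and 4 more weeks of growth cannot be told apart in any comparison of runners with the 4-week groups. For the 4-week and running groups each vector was given at 8e13 vector genomes per kg and the guide vector was self-complementary. For the 18-month group the guide vector was single-stranded and given at 2.5e14, with 5e13 of the SpCas9 vector. Age, vector dose, vector form and table cannot be told apart when 4 weeks and 18 months are set side by side.

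CC chemokines are small secreted proteins that draw leukocytes along a gradient by binding G protein-coupled receptors. CCL2, CCL7 and CCL12 are monocyte chemoattractant proteins that bind CCR2, the receptor that lets inflammatory monocytes leave the bone marrow and enter injured tissue. CCL8 is a further protein of that group by sequence, and in the mouse it is known to act through CCR8. CCL3 and CCL4 are macrophage inflammatory proteins, and CCL3 binds CCR1. CCL6 and CCL9 are rodent chemokines that bind CCR1. In dystrophic muscle, fibres are damaged repeatedly, and monocytes and macrophages are a large part of the cells found between them.

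The libraries held 30552867 to 38090522 gene counts in the table of the 4-week and running groups and 23125930 to 31254175 in the 18-month table. Levels are given as CPM, a gene's count put on a common library size, with TMM factors within each table, and differences as log2 fold changes with their standard errors. A gene was called when the adjusted p of edgeR's quasi-likelihood test was under 0.05. The labels do not say that libraries of a group came from separate animals, and p-values measure the spread between these libraries only. The 10 markers of muscle fibres summed to 70380 to 243500 CPM over all libraries. All 18 macrophage and monocyte markers had counts in every library. Some libraries stood apart from their group. In the corrected group at 18 months, replicate 2 was below its group mean in all 9 genes, and its summed macrophage markers were at 470.5 CPM against 1049 and 1495 in the others. In delEx44 after running, replicate 1 was below replicate 2 in all 9 genes. WT replicate 3 at 4 weeks had neutrophil markers summing to 264 CPM, against 2.24 and 2.64 in the other WT libraries. In the 18-month WT group, 2 of the 3 libraries were tied to their group only, and they are called WT-1 and WT-2 after their columns.

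The 8 chemokine genes lie on chromosome 11 in 2 groups (GRCm38). Ccl2, Ccl7, Ccl12 and Ccl8 follow each other between 82035571 and 82116799, over 81.2 kb. Ccl9, Ccl6, Ccl3 and Ccl4 lie between 83572919 and 83664683, over 91.8 kb, and 1456.1 kb separates the groups. Ccr2 lies on chromosome 9, from 124101950 to 124113557. Ccl2 overlaps Gm17268 and Ccl6 overlaps E230016K23Rik, each on the opposite strand, and whether counting used strand is not given in the sources used here. Of the stretches of 50 bases in the exons, 1.97% of those of Ccl9 and 1.91% of those of Ccr2 also occur in another gene, and none in the other 7 genes. No such stretch was shared between any pair of the 9 genes.

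The starts of some neighbouring members are shown, and whether these bases bear on the changes below was not tested. RefSeq's promoter table (GRCm38.p6) held 6 of the 9 genes, namely Ccl3, Ccl6, Ccl8, Ccl9, Ccl12 and Ccr2. Each line gives 100 bases before and 50 bases after the transcription start in the direction of the gene. Capitals mark matches to TATAAA, the TATA box motif, and TGANTCA, the AP-1 motif, searched on both strands. The windows are chr11:82115085-82115234 (plus strand) for Ccl8, chr11:82101745-82101894 (plus) for Ccl12, chr11:83593038-83593187 (minus) for Ccl6 and chr11:83578587-83578736 (minus) for Ccl9.
Ccl8: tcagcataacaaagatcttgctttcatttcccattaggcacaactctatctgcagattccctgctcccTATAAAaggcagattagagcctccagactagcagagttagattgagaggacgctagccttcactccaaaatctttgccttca
Ccl12: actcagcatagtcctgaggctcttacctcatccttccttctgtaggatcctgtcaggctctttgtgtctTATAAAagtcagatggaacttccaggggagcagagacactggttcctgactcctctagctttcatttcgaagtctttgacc
Ccl6: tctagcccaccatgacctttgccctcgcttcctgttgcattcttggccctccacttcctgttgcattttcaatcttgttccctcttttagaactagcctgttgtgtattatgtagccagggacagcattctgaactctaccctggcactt
Ccl9: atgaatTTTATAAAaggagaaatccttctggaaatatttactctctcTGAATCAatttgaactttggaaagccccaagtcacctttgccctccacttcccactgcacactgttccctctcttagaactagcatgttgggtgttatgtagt
TATAAA lies 32 bases before the start of Ccl8 and 31 bases before that of Ccl12. In Ccl9 the capitals TTTATAAA are overlapping matches on both strands. They lie further from the start, at −94 to −87, and another match lies outside the printed bases, at −224 to −219. TATAAA was, at any position, in 3 of the 6 windows of 300 bases (250 before the start and 50 after), against 13.6% of the 32851 promoters searched. TGANTCA was in 1 of 6, that of Ccl9, against 7.8%. GGANTTTCC, the NF-kB motif, was in 0 of 6, against 1.3%, and TTGCNNAA, the C/EBP motif, in 0 of 6, against 10.8%. GAAANNGAA, an interferon response element, was in those of Ccl3 and Ccr2 (8.6% of all), and GAGGAAG, the PU.1 motif, in that of Ccl8 (13.6%). The longest run shared by any pair of these 6 windows was gccctccacttcc, 13 bases in Ccl6 and Ccl9. Ccl8 and Ccl12 shared gctttcatttc, 11 bases, and other pairs shared at most 9.

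Per kilobase of exon (RPKM, CPM divided by exon length in kilobases), Ccl6, Ccl8 and Ccl9 were among the 5 highest of these genes in every group, and Ccl3 and Ccl4 were the lowest 2. In delEx44 at 4 weeks Ccl6 had a mean of 60.9 RPKM and Ccl8 44.8. Ccl7 stood at 27.3 RPKM, Ccl2 at 25.9 and Ccl9 at 24.7. In WT at the same age Ccl6 had 13.9, Ccl9 7.14 and Ccl8 5.52 RPKM, while Ccl7 had 1.76 and Ccl2 1.75. Ccl2 and Ccl7 were thus close to Ccl9 in the mutant and well below it in WT. At 18 months Ccl8 took the first place in delEx44 with 83.1 RPKM, ahead of Ccl6 with 62.0 and Ccl7 with 27.3. Ccl3 and Ccl4 reached 2.87 and 2.47 RPKM in delEx44 at 4 weeks, above their level in the other groups of that table.

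**Figure D1:**
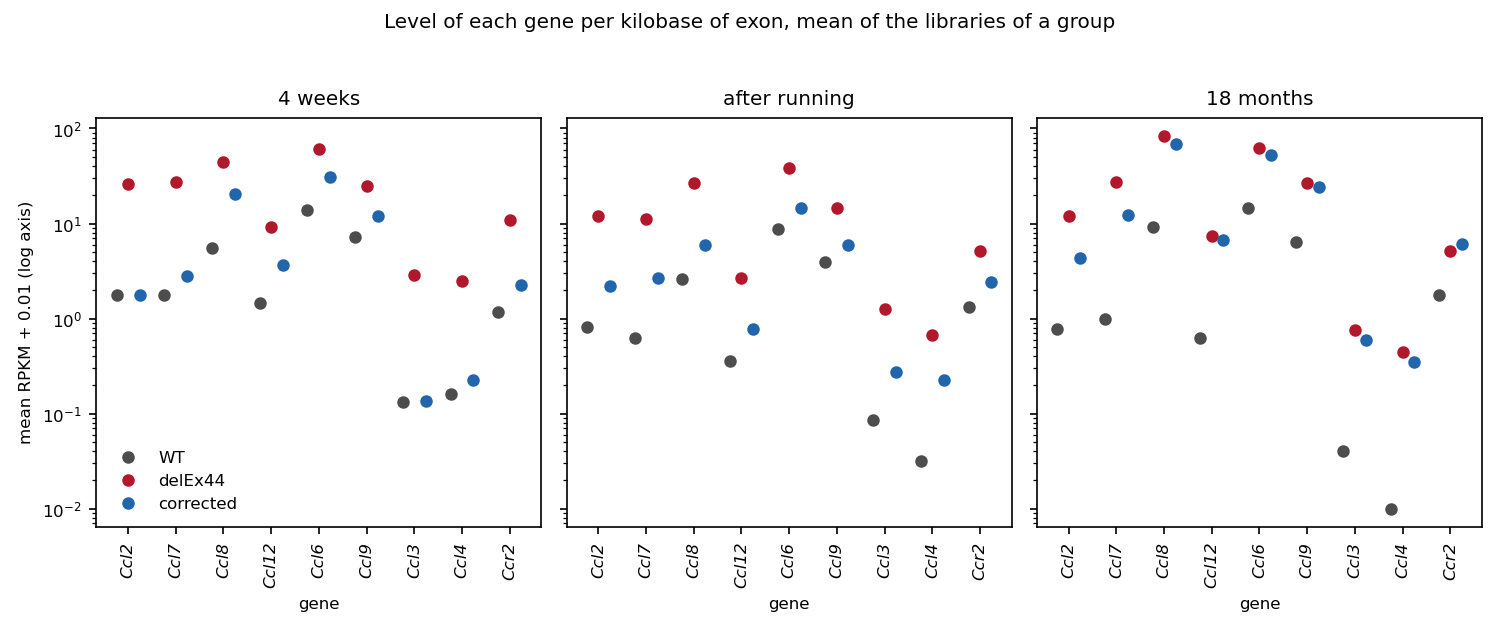
Mean RPKM plus 0.01 on a log axis for each gene in the 3 settings, with grey points for WT, red for delEx44 and blue for corrected. Ccl3 and Ccl4 lie lowest in every group, and Ccl4 in WT at 18 months is at 0 RPKM.

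At 4 weeks all 9 genes were higher in delEx44 than in WT, and all 9 were lower in corrected than in delEx44. Among all genes tested, 25.2% were called higher and 25% lower in delEx44 against WT, and 22.1% higher and 24.2% lower in corrected against delEx44. The median log2 fold change of the 9 genes was 3.23 in the first comparison and −2.30 in the second, against −0.00394 and −0.0073 over all genes tested. In bulk tissue, more cells of a type and more RNA per cell cannot be told apart, here and in all comparisons below. The summed macrophage and monocyte markers were at 488.4 to 553.6 CPM in WT, 2146 to 3105 in delEx44 and 749.6 to 1019 in corrected, and their part in these differences was not tested.

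**Figure D2:**
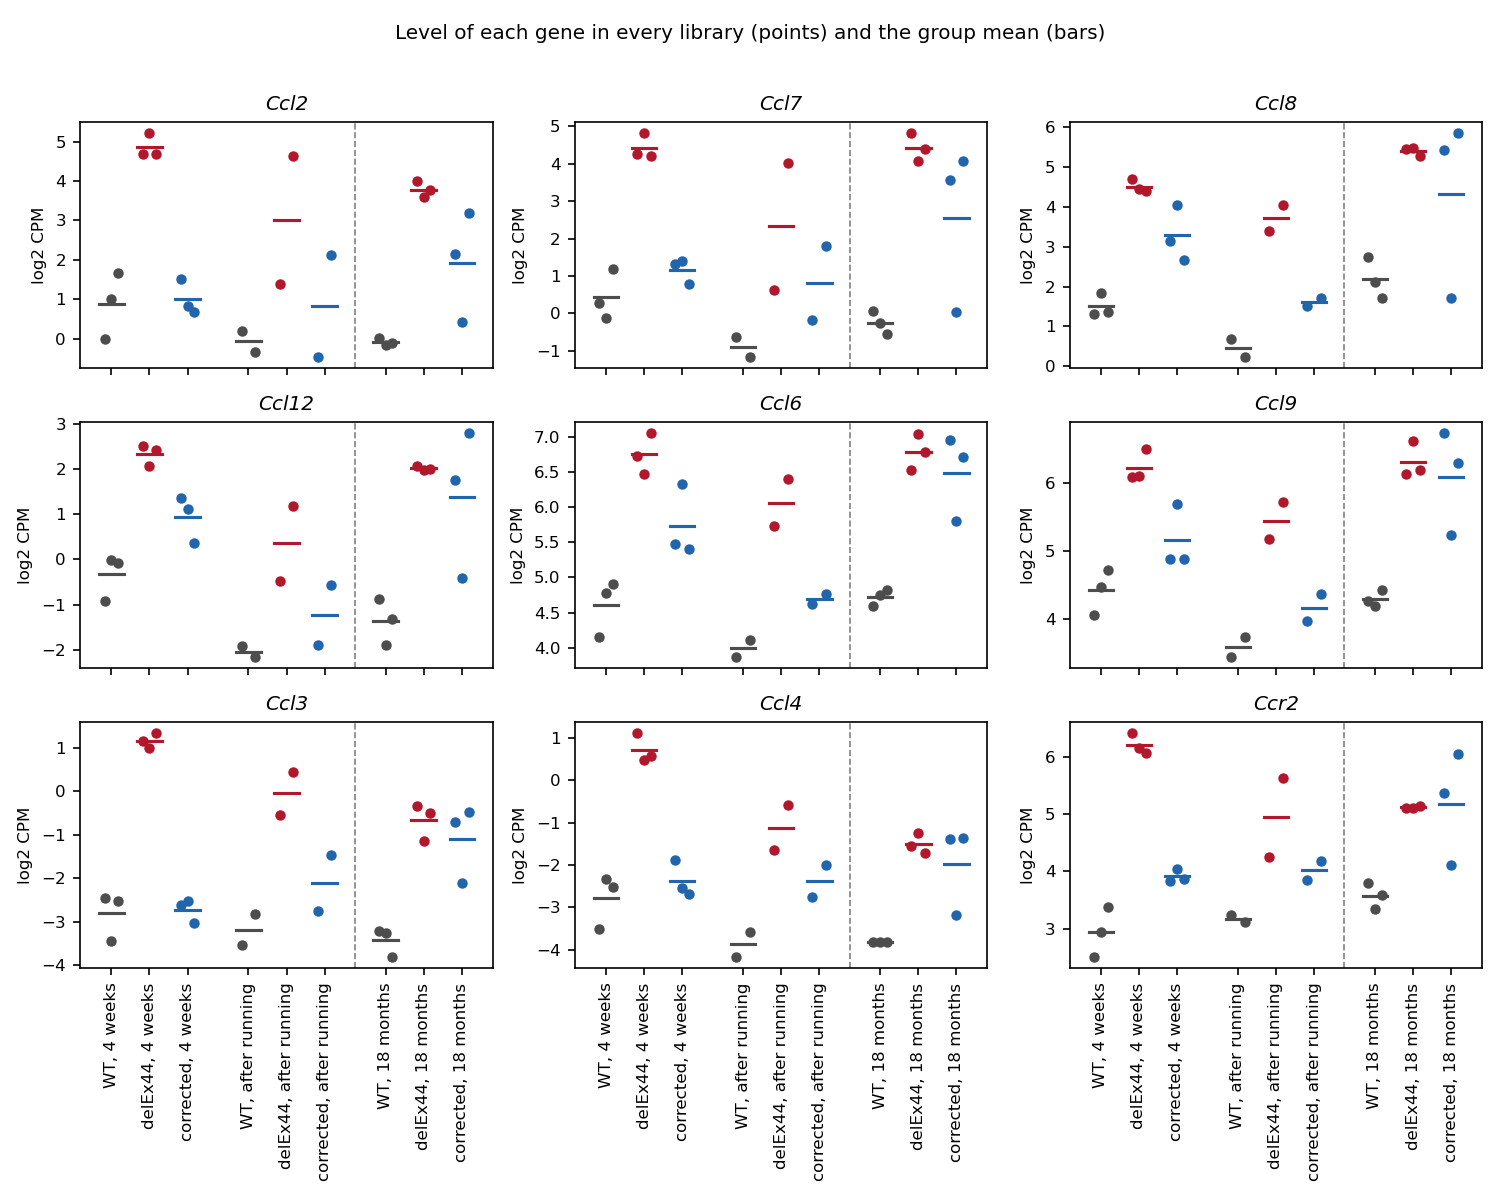
Log2 CPM of each gene in every library (points) with the group mean (bars), WT in grey, delEx44 in red and corrected in blue, with a dashed line between the separately scaled tables. At 4 weeks the delEx44 points lie above all WT points in each panel, and the corrected points at 18 months are spread widely in most panels.

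Ccl2, the main ligand of CCR2, was at 0.945, 1.95 and 3.09 CPM in the WT libraries at 4 weeks, at 25.5, 37.0 and 25.8 CPM in delEx44 and at 2.81, 1.72 and 1.55 CPM in corrected. The delEx44 libraries stood clear of both other groups, and WT and corrected overlapped. In log2 terms the fold change was 3.87 ± 0.81 (SE) for delEx44 against WT (adjusted p = 0.0035) and −3.85 ± 0.80 for corrected against delEx44 (adjusted p = 0.004). Ccl7, a second CCR2 ligand and the neighbour of Ccl2, was at 1.17, 0.867 and 2.20 CPM in WT, 19.2, 28.1 and 18.3 in delEx44, against 2.46, 2.56 and 1.68 in corrected. It had the same order of groups as Ccl2, with log2 fold changes of 3.93 ± 0.77 (adjusted p = 0.0021) and −3.28 ± 0.72 (adjusted p = 0.0049).

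Ccl8 and Ccl12 fell less far in corrected muscle. Ccl8 was at 2.43, 3.54 and 2.50 CPM in WT, 26.0, 21.8 and 20.9 in delEx44, with 8.86, 16.5 and 6.27 in corrected. No library of one group overlapped another group. The log2 fold change was 3.03 ± 0.32 for delEx44 against WT (adjusted p = 2.5e-05) and −1.12 ± 0.29 for corrected against delEx44 (adjusted p = 0.0094). Ccl12, a mouse CCR2 ligand, was at 0.472, 0.939 and 0.892 CPM in WT, 5.57, 4.09 and 5.25 in delEx44, against 2.51, 2.10 and 1.22 in corrected. Here too the groups did not overlap, with log2 fold changes of 2.69 ± 0.44 (adjusted p = 0.00028) and −1.34 ± 0.39 (adjusted p = 0.014).

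Ccl6 and Ccl9, the CCR1 ligands, had the smallest fold changes of the 9 genes and the highest WT levels in CPM. Ccl6 was at 17.7, 27.3 and 29.9 CPM in WT, 106.4, 89.0 and 132.7 in delEx44, with 44.5, 80.2 and 42.2 in corrected. Its log2 fold change was 2.13 ± 0.29 in delEx44 against WT (adjusted p = 0.00019) and −0.97 ± 0.28 in corrected against delEx44 (adjusted p = 0.017). Ccl9 was at 16.7, 22.1 and 26.4 CPM in WT, 67.5, 68.3 and 89.9 in delEx44, against 29.5, 51.6 and 29.4 in corrected. For both genes every corrected library lay between the WT and the delEx44 libraries. The Ccl9 log2 fold changes were 1.79 ± 0.26 (adjusted p = 0.00023) and −1.03 ± 0.25 (adjusted p = 0.007).

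Ccl3 and Ccl4, the macrophage inflammatory proteins, were near the limit of detection in WT and corrected muscle at 4 weeks. Ccl3 had 4, 1 and 4 counts in WT, 103, 85 and 101 in delEx44, with 4, 4 and 2 in corrected. Ccl4 had 1, 4 and 4 counts in WT, 99, 59 and 59 in delEx44, against 8, 4 and 3 in corrected. WT and corrected overlapped for both genes, and delEx44 lay far above. Over the summed counts of a group, Ccl3 was 22.6 times as high in delEx44 as in WT (95% interval 11.8 to 49.99, counting error only) and Ccl4 was 17.0 times as high (8.79 to 37.7). The fitted log2 fold changes for corrected against delEx44 were −4.43 ± 0.52 for Ccl3 (adjusted p = 1.1e-05) and −3.44 ± 0.49 for Ccl4 (adjusted p = 6.4e-05).

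Ccr2, the receptor, was at 5.64, 7.65 and 10.4 CPM in WT, 84.9, 70.8 and 67.1 in delEx44, with 14.2, 16.4 and 14.6 in corrected. Every corrected library was above every WT library and well under every delEx44 library. In log2 terms the fold change was 3.23 ± 0.31 for delEx44 against WT (adjusted p = 2.1e-05) and −2.30 ± 0.30 for corrected against delEx44 (adjusted p = 0.00018). All 9 calls of delEx44 against WT held when any 1 library was left out. For corrected against delEx44, Ccl6 lost its call without corrected replicate 1 (adjusted p = 0.062), corrected replicate 3 (adjusted p = 0.068) or delEx44 replicate 3 (adjusted p = 0.059). Ccl12 lost it without corrected replicate 3 (adjusted p = 0.059).

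Between corrected and WT at 4 weeks no gene was called, of these 9 or of all genes tested (0% higher and 0% lower). The unadjusted p was under 0.05 for 5 of the 9 genes, limma-voom called 0, and DESeq2 called 3, namely Ccl6, Ccl8 and Ccr2. The shares of 0% belong to the edgeR fit with all libraries. Ccl8 had the largest log2 difference, 1.91 ± 0.33 higher in corrected (adjusted p = 0.12), and without corrected replicate 3 it passed (adjusted p = 0.025). Ccl12 was 1.35 ± 0.45, Ccl6 1.16 ± 0.29, Ccr2 0.93 ± 0.32 and Ccl9 0.76 ± 0.26 higher (adjusted p of 0.2 to 0.36). Ccl2 and Ccl3 differed by 0.03 ± 0.90 and 0.03 ± 0.69 (adjusted p of 0.99 to 1), and these errors leave room for differences in either direction.

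**Figure D3:**
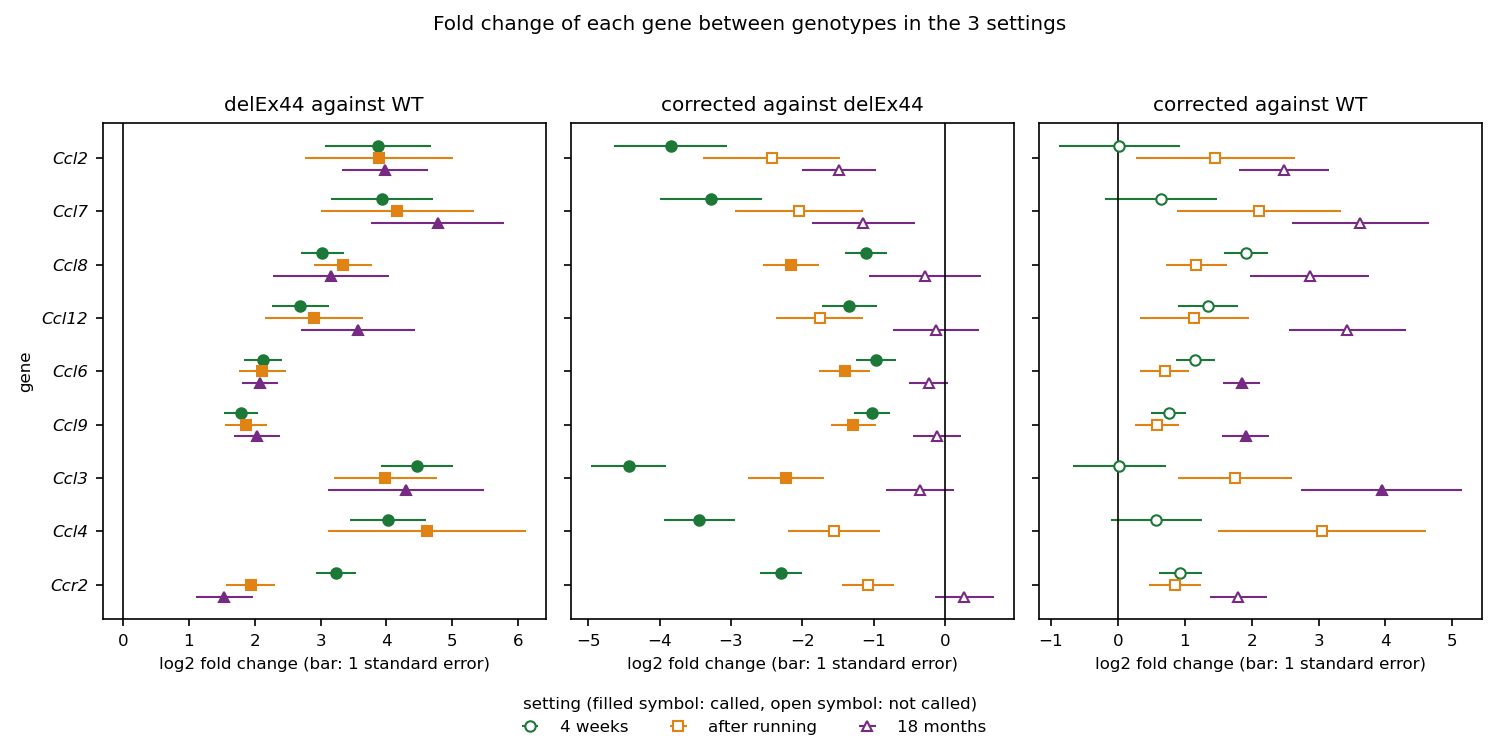
Log2 fold change of each gene with 1 standard error, for delEx44 against WT, corrected against delEx44 and corrected against WT, at 4 weeks (green circles), after running (orange squares) and at 18 months (purple triangles). Filled symbols were called, and Ccl4 has no 18-month symbol because it was not tested there.

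After running, all 9 genes were again higher in delEx44 than in WT, while 14.9% of all genes tested were called higher and 14.2% lower. The median log2 fold change of the 9 genes was 3.34, against −0.0119 over all genes. Ccl2 was at 1.10 and 0.734 CPM in WT, 2.58 and 24.6 in delEx44, against 0.675 and 4.3 in corrected. The lower delEx44 library was under the higher corrected library. The log2 fold change of Ccl2 in delEx44 against WT was 3.89 ± 1.12 (adjusted p = 0.025). Ccl7 was at 0.593 and 0.395 CPM in WT, 1.5 and 16.3 in delEx44, against 0.829 and 3.41 in corrected, with a log2 fold change of 4.16 ± 1.16 in delEx44 against WT (adjusted p = 0.017). These calls rested on delEx44 replicate 2. Without it the log2 fold change was 1.5 for Ccl2 (adjusted p = 0.29), 1.60 for Ccl7 (adjusted p = 0.2) and 1.79 for Ccl12 (adjusted p = 0.077). Without delEx44 replicate 1 these rose to 4.75, 5.04 and 3.53 and stayed called. Ccl2 and Ccl7 also lost their calls without WT replicate 1 (adjusted p = 0.095 and 0.077) and without WT replicate 2 (adjusted p = 0.14 and 0.12), and Ccl12 without WT replicate 2 (adjusted p = 0.064). The summed macrophage markers of the delEx44 libraries were at 1442 and 1398 CPM in replicates 1 and 2. Their summed neutrophil markers spanned 97.5 to 234.4 CPM and their dendritic cell markers 486.5 to 653.1 CPM. The part of these cells was not tested.

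Ccl8 was at 1.54 and 1.13 CPM in WT, 10.5 and 16.5 in delEx44, against 2.79 and 3.24 in corrected. Its log2 fold change was 3.34 ± 0.44 in delEx44 against WT (adjusted p = 0.00031) and −2.16 ± 0.39 in corrected against delEx44 (adjusted p = 0.0033). Ccl6 was at 14.6 and 17.2 CPM in WT, 52.9 and 84.4 in delEx44, with 24.5 and 27.1 in corrected, and its log2 fold changes were 2.11 ± 0.36 (adjusted p = 0.0021) and −1.41 ± 0.35 (adjusted p = 0.018). For both genes the 3 genotypes did not overlap. Ccl9 was at 10.9 and 13.3 CPM in WT, 36.0 and 52.4 in delEx44, against 15.6 and 20.6 in corrected, with log2 fold changes of 1.87 ± 0.32 (adjusted p = 0.002) and −1.29 ± 0.32 (adjusted p = 0.015). Ccl12 was at 0.208 and 0.169 CPM in WT, 0.659 and 2.22 in delEx44, with 0.215 and 0.614 in corrected, and its lower delEx44 library lay just above the higher corrected one. Its log2 fold change in delEx44 against WT was 2.90 ± 0.74 (adjusted p = 0.0074). Ccr2 was at 9.34 and 8.58 CPM in WT, 19.1 and 49.6 in delEx44, against 14.4 and 18.0 in corrected. The lower delEx44 library was thus close to the corrected ones. The Ccr2 log2 fold change was 1.94 ± 0.38 in delEx44 against WT (adjusted p = 0.0041) and 1.09 without delEx44 replicate 2. When edgeR was fitted to the compared groups only, Ccr2 was not called (adjusted p = 0.14). Nor were Ccl2 and Ccl7 (adjusted p = 0.21 for both) or Ccl12 (adjusted p = 0.052) in that fit. By limma-voom, Ccl2 and Ccl7 were not called (adjusted p = 0.12 for both).

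Ccl3 and Ccl4 stayed scarce after running. Ccl3 had 1 and 3 counts in WT, 24 and 47 in delEx44, against 3 and 11 in corrected, and log2 fold changes of 3.98 ± 0.79 in delEx44 against WT (adjusted p = 0.0006) and −2.23 ± 0.53 in corrected against delEx44 (adjusted p = 0.0076). Leaving out 1 library moved the first between 3.38 (without delEx44 replicate 2) and 4.87 (without WT replicate 2), and it stayed called. Ccl4 had 0 and 1 counts in WT, 10 and 22 in delEx44, against 3 and 7 in corrected. WT held 1 count in all, so the ratio of summed counts, 29.9 for delEx44 against WT, had a 95% interval from 4.99 to 1216.15. Ccl4 was called in delEx44 against WT (adjusted p = 0.0027), also without any 1 of the WT or delEx44 libraries, but its fitted log2 fold change moved between 3.79 and 6.97.

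In corrected against delEx44 after running, 4 of the 9 genes were called lower (Ccl3, Ccl6, Ccl8 and Ccl9), with 12.4% of all genes tested called lower and 10.8% higher. The median log2 fold change was −1.76, against −0.00431 over all genes. All 9 had an unadjusted p under 0.05. Ccl12 was −1.76 ± 0.61 with an adjusted p that rounds to 0.05 and did not pass, and Ccr2 was −1.08 ± 0.37 (adjusted p = 0.058). DESeq2 called both (adjusted p = 0.015 and 0.0075), and so did edgeR without robust dispersions (adjusted p = 0.048 and 0.038). When edgeR was fitted to the compared groups only, Ccl3 was not called (adjusted p = 0.083). Ccl2 (−2.43 ± 0.96), Ccl7 (−2.05 ± 0.90) and Ccl4 (−1.55 ± 0.64) had adjusted p of 0.085 to 0.13. Without delEx44 replicate 2 the Ccl2 difference was −0.04 and that of Ccl7 was 0.51, and without corrected replicate 3 they were −4.33 and −3.42. The count moved with single libraries. It was 9 without delEx44 replicate 1, 1 without delEx44 replicate 2 and 1 without corrected replicate 1, and Ccl8 was called in each of these. Without corrected replicate 3 it was 4, with Ccl12 in place of Ccl6, and Ccl3 was at −3.34. The summed macrophage markers were at 389.1 to 399.3 CPM in WT runners, 1398 to 1442 in delEx44 and 416.2 to 566 in corrected, and their part was not tested.

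Between corrected and WT runners none of the 9 genes was called by edgeR, DESeq2 or limma-voom, and 4 had an unadjusted p under 0.05. Of all genes tested, 0.00666% were called higher and 0.0133% lower. The log2 differences, all higher in corrected, ran from 0.58 ± 0.33 for Ccl9 to 3.05 ± 1.55 for Ccl4, with adjusted p of 0.43 to 0.74. Without corrected replicate 3 the difference of Ccl2 was −0.42.

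At 18 months 8 of the genes could be tested, since Ccl4 did not reach the count minimum. All 8 were higher in delEx44 than in WT, and 28.8% of all genes tested were called higher and 23.8% lower. None of the 8 was called between corrected and delEx44, where 19.6% of all genes were called higher and 21.4% lower. Ccl3, Ccl6 and Ccl9 were called higher in corrected than in WT, a comparison in which 2.34% of all genes were called higher and 2.43% lower. The median log2 fold change of the 8 genes was 3.36, −0.26 and 2.67 in these comparisons, against 0.0478, −0.0283 and 0.0121 over all genes tested. The summed macrophage markers were at 401.1 to 528.8 CPM in WT, 1320 to 1415 in delEx44 and 470.5 to 1495 in corrected, and their part was not tested.

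Ccl2 was at 0.941, 0.830 and 0.852 CPM in WT at 18 months, 15.9, 11.9 and 13.5 in delEx44, with 4.33, 1.28 and 8.99 in corrected. The 3 groups did not overlap. The log2 fold change was 3.97 ± 0.65 in delEx44 against WT (adjusted p = 0.0015), −1.49 ± 0.52 in corrected against delEx44 (adjusted p = 0.055) and 2.48 ± 0.67 in corrected against WT (adjusted p = 0.071). DESeq2 and limma-voom called Ccl2 lower in corrected than in delEx44, and it was the single member they called there. Ccl7 was at 0.977, 0.764 and 0.616 CPM in WT, 28.0, 16.7 and 21.0 in delEx44, against 11.7, 0.960 and 16.8 in corrected. Corrected replicate 2 thus lay at the WT level, and replicate 3 within the range of delEx44. Its log2 fold change was 4.78 ± 1.01 in delEx44 against WT (adjusted p = 0.0049) and −1.15 ± 0.72 in corrected against delEx44 (adjusted p = 0.25).

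Ccl8 showed the widest split among the corrected libraries. It was at 6.66, 4.28 and 3.22 CPM in WT, 44.2, 44.6 and 38.6 in delEx44, with 43.1, 3.24 and 57.9 in corrected. Corrected replicate 2 lay beside the lowest WT library, replicate 1 fell inside the delEx44 range and replicate 3 exceeded it. The log2 fold change was 3.15 ± 0.88 in delEx44 against WT (adjusted p = 0.023) and −0.29 ± 0.78 in corrected against delEx44 (adjusted p = 0.8). Ccl12 was at 0.470, 0.199 and 0.332 CPM in WT, 4.13, 3.84 and 3.92 in delEx44, against 3.28, 0.680 and 6.81 in corrected, with the same order of the corrected libraries. Its log2 fold change was 3.56 ± 0.86 in delEx44 against WT (adjusted p = 0.0064) and −0.13 ± 0.60 in corrected against delEx44 (adjusted p = 0.88).

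Ccl6 was at 24.0, 26.9 and 28.1 CPM in WT at 18 months, 92.4, 131.4 and 110.3 in delEx44, with 124.5, 55.6 and 104.7 in corrected. Ccl9 was at 19.3, 18.2 and 21.5 CPM in WT, 69.6, 98.3 and 73.2 in delEx44, against 105.9, 37.6 and 77.9 in corrected. Even the lowest corrected library lay above every WT library for both genes. In delEx44 against WT the log2 fold change was 2.08 ± 0.28 for Ccl6 (adjusted p = 0.00075) and 2.03 ± 0.35 for Ccl9 (adjusted p = 0.0026). In corrected against WT it was 1.85 ± 0.28 for Ccl6 (adjusted p = 0.023) and 1.91 ± 0.35 for Ccl9 (adjusted p = 0.036).

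Ccl3 had 1, 1 and 0 counts in WT at 18 months, 24, 12 and 19 in delEx44, with 14, 4 and 18 in corrected. The ratio of summed counts was 22.9 for delEx44 against WT (95% interval 6.04 to 193.75) and 18.0 for corrected against WT (4.63 to 154.21). It was called in both comparisons with WT (adjusted p = 0.0013 and 0.032). Ccl4 had 0 counts in all WT libraries, 9, 11 and 7 in delEx44, against 8, 1 and 9 in corrected. With WT set at a limit of 3 counts over the group, Ccl4 was 7.49-fold higher in delEx44 and 6.0-fold higher in corrected. The counting error of the delEx44 and corrected counts is not in these values.

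Ccr2 was at 13.8, 10.0 and 11.9 CPM in WT at 18 months, 34.2, 34.4 and 35.1 in delEx44, with 41.2, 17.2 and 66.1 in corrected. The delEx44 libraries were nearly level, and 2 of the 3 corrected libraries exceeded them. For Ccr2 the log2 fold change was 1.54 ± 0.43 in delEx44 against WT (adjusted p = 0.021), 0.27 ± 0.41 in corrected against delEx44 (adjusted p = 0.65) and 1.80 ± 0.43 in corrected against WT (adjusted p = 0.062). In delEx44 against WT, Ccl8 and Ccr2 lost their calls without WT-2 (adjusted p = 0.076 and 0.069), WT replicate 3 (0.068 and 0.055) or delEx44 replicate 1 (0.052 and 0.051). Ccl8 alone lost it without delEx44 replicate 2 (an adjusted p that rounds to 0.05) and Ccr2 alone without delEx44 replicate 3 (adjusted p = 0.051), while the other 6 genes kept theirs in every such fit.

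The corrected comparisons at 18 months turned on replicate 2 of the corrected group. Without it Ccl2 was called lower than in delEx44 (−1.04, adjusted p = 0.011), Ccr2 was called higher (0.64, adjusted p = 0.03), and all 8 genes were called higher than in WT. Without corrected replicate 3, Ccl2 was again called lower than in delEx44 (−2.26, adjusted p = 0.002). The 3 calls against WT were all lost without WT-1, WT-2, WT replicate 3 or corrected replicate 1. Across these 4 fits the adjusted p was 0.055 to 0.11 for Ccl6, 0.076 to 0.14 for Ccl9 and 0.083 to 0.13 for Ccl3. Without corrected replicate 3, Ccl6 was still called. DESeq2 called 9 genes higher in corrected than in WT and limma-voom 3, and 8 of the genes tested had an unadjusted p under 0.05. The shares of all genes given for these comparisons are those of the edgeR fit with all libraries.

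**Figure D4:**
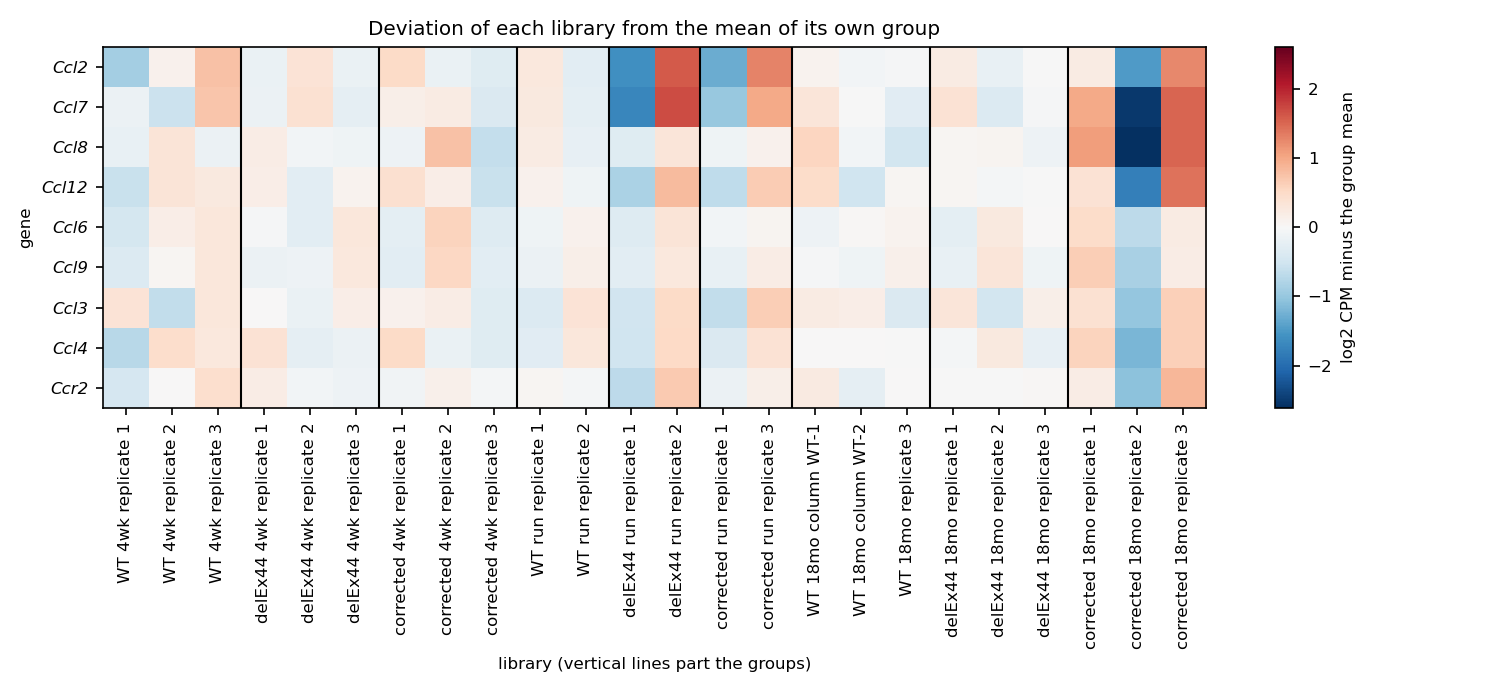
Log2 CPM of each gene in each library minus the mean of its own group (red above, blue below), with vertical lines between groups. Corrected replicate 2 at 18 months lies −2.61 to −0.691 below its group mean in all 9 genes, and replicate 1 of the delEx44 runners −1.70 to −0.269 below.

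The libraries of a group tended to move together over these genes where the group was spread. In the corrected group at 18 months, replicates 1 and 3 were above the group mean in all 9 genes, by 0.193 to 1.09 and by 0.202 to 1.52 in log2 CPM. Corrected replicate 3 at 4 weeks and, of the 2 corrected runners, replicate 1 were also below their group mean in all 9 genes. In delEx44 at 4 weeks and at 18 months no library was above or below its group mean in all 9 genes, and deviations stayed between −0.475 and 0.388.

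Set against the mean log2 CPM of the 18 macrophage and monocyte markers in the same library, the genes behaved in several ways. Ccl2 was −2.89 ± 0.68 (SD) relative to the markers in WT at 4 weeks, −1.31 ± 0.52 in delEx44 and −3.48 ± 0.49 in corrected. It was therefore further above WT in delEx44 than the markers were, and the same held at 18 months (−3.62 ± 0.19, −1.45 ± 0.15 and −2.75 ± 0.43). Ccl7 reached −0.81 ± 0.32 in delEx44 at 18 months, from −3.78 ± 0.05 in WT. At 4 weeks Ccl6 was at 0.83 ± 0.35 in WT, 0.58 ± 0.35 in delEx44 and 1.25 ± 0.29 in corrected, where its libraries lay above all delEx44 libraries on this scale. Ccr2 was highest relative to the markers in delEx44 at 4 weeks (0.03 ± 0.12, against −0.83 ± 0.28 in WT and −0.57 ± 0.19 in corrected). At 18 months it was highest in corrected (0.51 ± 0.07, against 0.03 ± 0.24 in WT and −0.12 ± 0.07 in delEx44). The corrected libraries at 18 months spanned a narrow range for Ccr2 on this scale, although they differed widely in CPM. These relative levels carry no test.

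**Figure D5:**
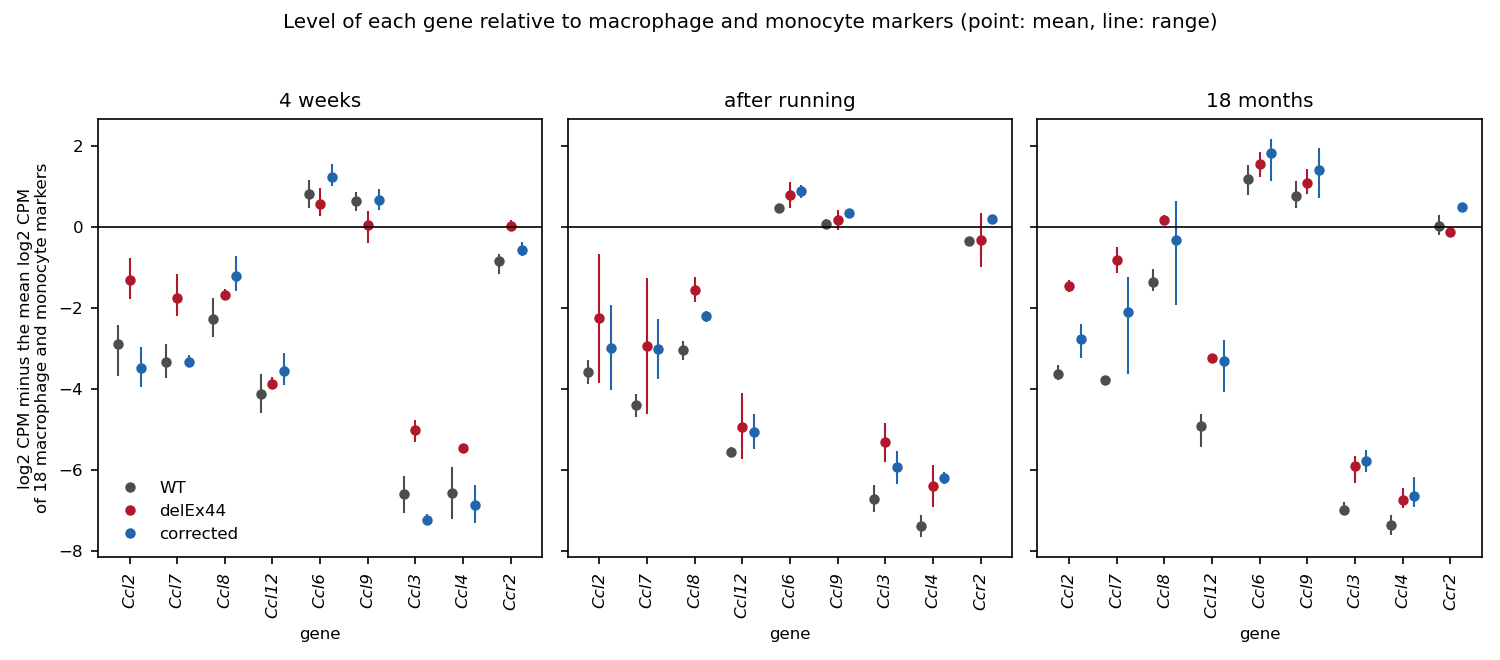
Log2 CPM of each gene minus the mean log2 CPM of 18 macrophage and monocyte markers, as the mean (point) and range (line) of each group in the 3 settings, WT in grey, delEx44 in red and corrected in blue. Ccl6 and Ccl9 lie above 0 on average in every group, and the means of Ccl2 and Ccl7 are highest in delEx44 in each setting. After running the delEx44 and corrected ranges overlap for both, and the means of Ccl7 are close (−2.93 and −3).

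The runners were compared with the 4-week group of the same genotype. In WT, Ccl12 was called lower (−2.0 ± 0.74, adjusted p = 0.046), with 14.2% of all genes called lower and 13.4% higher. This call was lost without WT replicate 2 (adjusted p = 0.11) or replicate 3 at 4 weeks (adjusted p = 0.11) and without either WT runner (adjusted p = 0.15 and 0.2), while Ccl9 joined it without WT replicate 1 at 4 weeks (adjusted p = 0.041). Of the 18 macrophage and monocyte markers 1 was lower in WT runners. In delEx44, Ccl3 (−1.18 ± 0.36, adjusted p = 0.024), Ccl4 (−1.9 ± 0.44, adjusted p = 0.0052), Ccl12 (−1.79 ± 0.45, adjusted p = 0.01) and Ccr2 (−1.11 ± 0.33, adjusted p = 0.025) were lower, with 19.3% of all genes called lower and 16.4% higher. None was called without delEx44 runner replicate 1 (adjusted p of 0.072 to 0.23), and 6 were without runner replicate 2, Ccl2 and Ccl7 among them, with Ccl3 at −1.79, Ccl4 at −2.61, Ccl12 at −2.91 and Ccr2 at −1.96. In this comparison 14 of the 18 macrophage and monocyte markers were lower, at a median log2 fold change of −0.90, and their part was not tested. Ccl3 also lost its call without delEx44 replicate 1 (adjusted p = 0.057) or replicate 3 at 4 weeks (adjusted p = 0.066), and Ccr2 without replicate 1 at 4 weeks (adjusted p = 0.075). In corrected, Ccl6 (−1.11 ± 0.32, adjusted p = 0.033), Ccl8 (−1.81 ± 0.36, adjusted p = 0.0054), Ccl9 (−1.03 ± 0.29, adjusted p = 0.027) and Ccl12 (−2.21 ± 0.57, adjusted p = 0.012) were lower, with 13.5% of all genes called lower and 12.3% higher. Here 8 of the 18 macrophage and monocyte markers were lower, at a median of −0.85, and their part was not tested. None of the 4 genes was called without corrected runner replicate 1 (adjusted p of 0.07 to 0.21). Ccl6 and Ccl9 lost theirs without corrected runner replicate 3 (adjusted p = 0.11 and 0.058, with Ccl12 then at −3.16) or corrected replicate 2 at 4 weeks (adjusted p = 0.087 and 0.071).

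Whether the genotype differences themselves differed between runners and 4-week mice was tested as an interaction. For delEx44 against WT, none of the 9 genes passed, 1 had an unadjusted p under 0.05 (Ccr2, −1.30 ± 0.49, adjusted p = 0.2), and 0.586% of all genes were called higher and 0.293% lower. For corrected against delEx44, none passed, 3 had an unadjusted p under 0.05 (Ccl3, Ccl4 and Ccr2), and 0.406% of all genes were called higher and 1.01% lower. DESeq2 and limma-voom also called 0 in each. Without delEx44 runner replicate 2, Ccr2 passed in both interactions (−2.14, adjusted p = 0.029, and 2.07, adjusted p = 0.031).

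Between 18 months and 4 weeks the difference of delEx44 from WT was smaller for Ccr2 (interaction −1.71 ± 0.49, adjusted p = 0.041), the single gene of the 9 called. Of all genes, 7.02% were called higher and 3.91% lower in this interaction. The call was lost without any 1 of the WT or delEx44 libraries except WT replicate 3 at 4 weeks, at an adjusted p of 0.056 to 0.096. For Ccl2, Ccl3, Ccl6, Ccl7, Ccl8, Ccl9 and Ccl12 the interaction lay between −0.16 and 0.86, with adjusted p of 0.6 to 1. Ccl4 did not pass either (adjusted p = 0.39), and its value is not given because WT had 0 counts at 18 months. The mutant increase of Ccl2 was 3.87 ± 0.81 at 4 weeks and 3.97 ± 0.65 at 18 months, and that of Ccl6 was 2.13 ± 0.29 and 2.08 ± 0.28.

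The difference of corrected from delEx44 was less negative at 18 months than at 4 weeks for 4 genes, with 7.75% of all genes called higher in this interaction and 8.12% lower. The interaction was 4.11 ± 0.65 for Ccl3 (adjusted p = 0.00052), 3.15 ± 0.75 for Ccl4 (adjusted p = 0.012), 2.59 ± 0.47 for Ccr2 (adjusted p = 0.0033) and 2.39 ± 0.68 for Ccl2 (adjusted p = 0.03). The first 3 of these were called in each fit that left out 1 library. Ccl3 and Ccl4 rest on few counts, with 10 and 15 summed over corrected at 4 weeks. Ccl4 was too scarce for the 18-month fit, with 27 counts in delEx44 and 18 in corrected. It was kept in this fit, in which delEx44 at 4 weeks, where it was highest, had 217. Ccl2 was lost without any of 7 libraries, namely corrected replicate 3 at 18 months (1.58, adjusted p = 0.09), corrected replicates 2 and 3 and delEx44 replicate 2 at 4 weeks, and each delEx44 library at 18 months (adjusted p of 0.051 to 0.071 in these 6). Ccl7 was 2.16 ± 0.84 (adjusted p = 0.099), and Ccl6, Ccl8, Ccl9 and Ccl12 were 0.77 to 1.24 (adjusted p of 0.18 to 0.55). Without corrected replicate 2 at 18 months, 8 genes were called, all but Ccl6. The 4-week and 18-month corrected groups also differed in vector dose and form, which cannot be told apart from age here.

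Other genes of the chemokine system were read from lists of 12 CC chemokines, 14 CC and atypical receptors, 20 genes of the CXC, CX3C and XC families and 18 cytokines and NF-kB regulators. At 4 weeks 2 of the 9 other CC chemokines tested were higher in delEx44 than in WT, Ccl22 (3.05 ± 0.40) and Ccl5 (3.03 ± 0.48), and Ccl25 was lower (−0.89 ± 0.12). All 9 other receptors tested changed, 5 higher and 4 lower. Ccr1, which binds CCL3, CCL6 and CCL9, was 2.51 ± 0.32 higher (adjusted p = 6.6e-05). Ccr7, which guides dendritic and T cells to lymph nodes, was 3.43 ± 0.59 higher, and the scavenging receptor Ackr4 was −1.14 ± 0.27 lower. Of the CXC, CX3C and XC genes 12 of 17 were higher and 0 lower, among them Cx3cr1 (3.43 ± 0.32), Cxcl16 (2.37 ± 0.27), Cxcl10 (2.88 ± 0.39) and Cxcr4 (1.32 ± 0.20). Of the cytokines and NF-kB regulators 14 of 15 were higher and 0 lower, among them Irf5 (1.38 ± 0.11), Myd88 (1.04 ± 0.08), Tlr2 (1.80 ± 0.21) and Nfkb2 (1.03 ± 0.14).

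In corrected against delEx44 at 4 weeks the direction turned in most of these lists. Of the other receptors 4 were lower, with Ccr1 at −2.17 ± 0.31 and Ccr7 at −2.01 ± 0.42, and 3 were higher, with Ccrl2 at 0.82 ± 0.18. Of the CXC, CX3C and XC genes 11 were lower and 1 higher, and of the cytokines and NF-kB regulators 9 were lower and 0 higher. Ccl22 (−2.20 ± 0.33) and Ccl5 (−1.91 ± 0.40) were lower and Ccl25 (0.67 ± 0.12) higher. After running, Ccr7 was 2.63 ± 0.52, Ccr1 1.9 ± 0.42 and Ccr3, the eosinophil receptor for eotaxins, 2.07 ± 0.62 higher in delEx44 than in WT. These 3 were lower in corrected than in delEx44 runners, with Ccr3 at −4.37 ± 0.98.

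At 18 months the receptors Ccr1 (2.42 ± 0.42) and Ackr3 (0.46 ± 0.07) were higher and Ccrl2 (−0.77 ± 0.12) lower in delEx44 than in WT. In all 6 of the 9 other receptors tested were higher and 1 lower. In corrected against delEx44 at 18 months, 0 other receptors were higher and 2 lower, Ackr2 (−0.72 ± 0.15) and Ackr3 (−0.36 ± 0.07). Of the other CC chemokines Ccl5, which draws T cells, was lower (−1.64 ± 0.38, adjusted p = 0.006), and Ccl28 (2.55 ± 0.48) and Ccl25 (0.71 ± 0.20) were higher. Of the CXC, CX3C and XC genes 3 of 15 were lower and 0 higher, with Cx3cl1, the ligand of CX3CR1, at −2.41 ± 0.26. Of the cytokines and NF-kB regulators 9 of 15 were lower, among them Nfkb2 (−0.77 ± 0.15), Relb (−0.69 ± 0.16) and Il6 (−3.05 ± 0.76), and 1 was higher, the inhibitor gene Nfkbia (0.42 ± 0.08). These calls stood in the same libraries in which 0 of the 8 members tested were called. In corrected against WT at 18 months Ccr1 was higher (2.00 ± 0.42, adjusted p = 0.036) and Ccrl2 lower (−0.73 ± 0.12, adjusted p = 0.02), the 2 other receptors called.

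Markers of other cell types were counted in the same fits. Of the macrophage and monocyte markers 15 of 18 were higher in delEx44 than in WT at 4 weeks, 16 after running and 16 at 18 months. In corrected against delEx44, 17 were lower at 4 weeks and 16 after running, while at 18 months 0 were lower and 1 higher. At 18 months 8 of the 10 fibro-adipogenic progenitor markers, 4 of the 11 T, natural killer and B cell markers tested and 5 of the 7 eosinophil and mast cell markers tested were lower in corrected than in delEx44. Of the 10 muscle fibre markers 8 were higher and 1 lower in that comparison. Of the dendritic cell markers 8 of 9 were higher in delEx44 than in WT at 4 weeks and 0 of 9 were called between corrected and delEx44 at 18 months. Endothelial markers gave 1 call among 8 at 4 weeks (lower in delEx44) and 0 at 18 months. The summed neutrophil markers were at 88.35 to 234.4 CPM in all runners, and in the separately scaled 18-month table at 4.117 to 38.6 CPM. The part of these cells in the members' differences was not tested.

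The genes most like each member were found by the root mean square difference of log2 group means, centred within each table, over the 9 groups and 13283 genes. For Ccl9 the nearest gene was Ccl6 (0.120), and for Ccl6 they were Bst1 (0.117) and then Ccl9. Fcgr2b, an inhibitory antibody receptor, was near both (0.157 to Ccl6 and 0.129 to Ccl9). For Ccl2 and Ccl7 the nearest gene was Fosl1, an AP-1 transcription factor (0.273 and 0.304), and each was second nearest to the other among all genes (0.355). With members left out, the second nearest gene was Cldn2 for Ccl2 (0.363) and Timp1 for Ccl7 (0.366). Tnnt2, the cardiac troponin T gene that immature muscle fibres also express, was the third nearest such gene of Ccl2 (0.366) and of Ccl7 (0.502). Over the 6 groups of the table in which Ccl4 was tested, Tnnt2 was its nearest such gene (0.222), before Cldn2 (0.256) and Bach2os (0.264). Ccl3 was nearest to Adam8 (0.224), Mefv and Sirpb1a. Ccl8 was nearest to Mcoln2 (0.287), Mmp3 and Ly9, and Ccl12 to Ms4a6d (0.327), Oas3 and Nxpe5. Ccr2 was nearest to Cd72 (0.124), Zc3h12d and Nlrp1a, and its nearest member, Ccl6, came only at place 161 (0.414). These distances rest on group means of 2 or 3 libraries and carry no test.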

How the data were processed

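Polyadenylated RNA of flash-frozen mouse quadriceps was sequenced from TruSeq libraries, 24 in all. The authors deposited raw counts per gene in 2 tables, one for the 4-week and running groups and one for 18 months. The submitters' processing notes name edgeR, HTSeq, STAR 2.7.2b, SAMtools 1.9, Bowtie2 2.3.4.3 and Trim Galore beside the genome build mm10. What each was used for is not given in the sources used here. The 5 records per table that name no gene, 27.4 to 34.2% and 42.2 to 48.3% of all counts, were left out.

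Counts were fitted with edgeR 4.0.16 in R 4.3.3 (filterByExpr by group, TMM scaling, robust dispersions, quasi-likelihood test, Benjamini-Hochberg adjustment over all genes tested, threshold 0.05). The fits held 15 libraries (15013 genes), 9 libraries at 18 months (14337 genes) and, for the interactions with age alone, 18 sedentary libraries (14937 genes). The tables were scaled separately, and only those interactions test across them. Standard errors came from the fitted information matrix. Log2 CPM used a prior count of 2. The scripts were tested on simulated data. Intervals cover counting error only, at 95%, and the limit of 3 counts covers that of a group with 0 counts only. Exon lengths came from GENCODE M21 and promoters from RefSeq (GRCm38.p6), with motifs searched in Python 3.11.15. Named genes were the 9 members, up to 4 called genes with the smallest p per context list and comparison and genes among the 3 nearest to each member in pattern. The members and all lists (other CC chemokines, other receptors, CXC, CX3C and XC genes, cytokines and NF-kB regulators, and markers of 8 cell types) were chosen with earlier results of these data known. Alternatives were RLE scaling, DESeq2 1.42.0, limma-voom 3.58.1, 2 other filters on low counts, no robust dispersion, only the compared groups, and leaving out each library. Except for the replicate block, shares of all genes called are those of the main fits. Counts of members under an alternative therefore have no such share beside them. They do not show whether calls rose or fell more among the members than among all genes. One item of the context lists is counted there but not reported here by name.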

Additional observations from a re-analysis of the deposited data

Results flagged for a closer look

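For 5 results the genotype difference itself differed between 18 months and 4 weeks by an interaction term in edgeR's quasi-likelihood test. The increase of Ccr2 in delEx44 over WT was smaller at 18 months, with an interaction of −1.714 on the log2 scale (adjusted p = 0.041). The difference of corrected from delEx44 was less negative at 18 months by 2.388 for Ccl2 (adjusted p = 0.03), 4.106 for Ccl3 (adjusted p = 0.00052), 3.146 for Ccl4 (adjusted p = 0.012) and 2.594 for Ccr2 (adjusted p = 0.0033). Age and table cannot be told apart in any of the 5, and in the last 4 vector dose and vector form cannot be told apart from them either. The call of the first was lost in 11 of the 12 fits that left out 1 library. The values of Ccl3 and Ccl4 rest on few counts, with 10 and 15 summed over corrected at 4 weeks.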

How the results depend on the processing

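Of the 141 differences of single members, 33 changed sign under at least 1 alternative. None of these was called, and none was called with the other sign. Of differences over 1 in size, the sign changed for Ccl7 in corrected against delEx44 runners without delEx44 replicate 2 (0.51, adjusted p = 0.69), and without corrected runner replicate 3 for Ccl2 against WT (−0.42), Ccl3 against 4 weeks (−0.08) and the interactions of corrected against delEx44 with running (−0.47 for Ccl2 and −0.13 for Ccl7). It also changed for the interaction of Ccl4 for delEx44 against WT with age by limma-voom (−0.09). Counts of members called in delEx44 against WT at 4 weeks stayed at 9 under each. With DESeq2, 3 members were called in corrected against WT at 4 weeks, 3 in WT runners against 4 weeks, 1 in corrected against delEx44 at 18 months and 9 in corrected against WT at 18 months. With limma-voom the count was 7 in delEx44 against WT runners, 0 in WT runners against 4 weeks and 8 in delEx44 runners against 4 weeks. It was 1 in corrected against delEx44 at 18 months and 0 in the interaction of delEx44 against WT with age. Without a filter on low counts it was 0 in WT runners against 4 weeks and 0 in that interaction, and with a stricter filter 1 in corrected against delEx44 at 18 months. Without robust dispersions it was 2 in WT runners against 4 weeks, and at 18 months 1 in corrected against delEx44 and 7 in corrected against WT. With only the compared groups it was 4 in delEx44 against WT runners, 3 in WT and 1 in corrected runners against 4 weeks, and 0 in corrected against WT at 18 months. The interaction of Ccl2 for corrected against delEx44 with age had an adjusted p of 0.054 without a filter and 0.055 with only the compared groups. The cause of these changes was not tested.

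Leaving out 1 library gave 7 to 9 members called in corrected against delEx44 and 0 to 1 in corrected against WT at 4 weeks. In runners it gave 6 to 9 for delEx44 against WT and 1 to 9 for corrected against delEx44. For runners against 4 weeks it gave 0 to 2 in WT, 0 to 6 in delEx44 and 0 to 4 in corrected, and 0 to 1 in each interaction with running. At 18 months it gave 6 to 8 for delEx44 against WT, 0 to 2 for corrected against delEx44 and 0 to 8 for corrected against WT. The interactions with age gave 0 to 1 and 3 to 8. The count was 0 without WT-1 or WT-2 in corrected against WT at 18 months and in the interaction of delEx44 against WT with age.

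With the replicate number as a block, corrected against delEx44 at 18 months again had 0 members called, and 31% of all genes were called. Deviations of same-numbered libraries correlated at −0.038, 0.022 and −0.05 over 14168 genes, and not every library correlated best with its own number. With 3 libraries per group these values cannot show whether same-numbered samples were related. No paired analysis was possible because the labels of the 4-week and running groups give no replicate numbers that pair them, and because WT-1 and WT-2 at 18 months were tied only to their group, so the block was not run for comparisons with WT. Ccl3 and Ccl4 had at most 8 counts in any WT or corrected library at 4 weeks, which limits what could be seen there.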
